A study of Mus musculus with 24 samples.

Results

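The replication-dependent histone genes were followed through their accessible chromatin in donor blood stem and progenitor cells. A region of the ATAC-seq table was taken when it lay within 1 kb of either end of a protein-coding gene whose symbol begins with Hist1h, Hist2h, Hist3h or Hist4h. By this rule 35 of 13910 regions were chosen, and 7579 regions lay at the ends of other protein-coding genes. The rule uses gene names and positions, not counts. Distances of 500 bp or 2 kb selected the same 35 regions.

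ATAC-seq records where the transposase Tn5 can insert adapters into open chromatin. CD45.1 WT marrow was placed into young CD45.2 recipients that were either WT or of a line labelled IκB–, and donor cells were sorted from femurs and tibias 13 to 15 weeks later. The profiled cells all came from WT donors. The labels give no sort day or sequencing batch, so whether either went with the host is not known and its part cannot be told. They also do not describe the genetic change of the IκB– line, the cells in which it acts or the sex of the mice. Columns of the count table that carry KO were read as IκB– recipients and those that carry LT as HSC, since each name then matched a single sample title. Each sample held 500 to 1500 CD45.1+ Lin– Sca1+ cKitHi cells of 1 of 4 subsets. The group labelled LT-HSC and called HSC here was gated as Flt3– CD150– CD48– according to the labels, MPP2 as Flt3– CD150+ CD48+, MPP3 as Flt3– CD150– CD48+ and MPP4 as Flt3+. Long-term stem cells are usually sorted as CD150+, so the written gate does not match the name, and HSC is used as the label of the group. There were 8 groups of 3 libraries. Between replicates 2 and 3 of WT MPP3 no difference beyond sampling noise was found, so their counts were summed as 1 sample, which left 23 replicates and n = 2 in that group. The labels do not state that replicates came from separate animals, so p-values measure the spread between these samples, which may be technical.

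Replication-dependent histone genes supply the core histones H2A, H2B, H3 and H4 and the linker histone H1 that package newly made DNA. They lack introns, lie in clusters, are transcribed mainly in S phase at nuclear bodies that hold the coactivator NPAT, and end in a stem-loop in place of a poly(A) tail. Many H2A and H2B genes stand head to head and share a promoter. Octamer sequences bound by POU2F1 (OCT1) are known from H2B promoters, site II bound by HINFP from H4 promoters, and the AC box from H1 promoters. Quiescent stem cells divide rarely, and multipotent progenitors cycle more often.

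The gene table (RefSeq, GRCm38.p6, the assembly of mm10) held 67 such genes, of which 47 had a chosen region within 1 kb and 37 had one on the promoter. Of the 35 regions, 30 were on chromosome 13: 7 near 21.7 Mb, 3 near 22.0 Mb and 20 between 23.5 and 23.8 Mb. A further 3 lay in the chromosome 3 cluster, 1 at Hist4h4 on chromosome 6 and 1 at Hist3h2a on chromosome 11, which also lies within 1 kb of an end of Trim17. By family, 4 of 6 H1 genes, 13 of 18 H2A genes, 14 of 18 H2B genes, 6 of 12 H3 genes and 10 of 13 H4 genes had a region. The testis-expressed genes Hist1h2ba and Hist1h2aa near 23.9 Mb had none.

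Promoter sequences of 300 bases, 250 before the start and 50 from it on, were in the RefSeq table for 62 of the 67 genes; those of Hist1h3f, Hist1h2bc, Hist1h3a, Hist2h2be and Hist2h4 are named only. The 5 printed here begin with the H4 promoter at the only region called in the main edgeR fit, which has no replicate block (Hist1h4b). Next are an H4 promoter with its elements in the usual order (Hist1h4d) and the H2A side of a promoter shared with Hist1h2bk (Hist1h2ah). Last come that of the chromosome 11 H2A gene with the next largest difference between recipients (Hist3h2a) and an H1 promoter (Hist1h1d). Each is written 5′ to 3′ on the strand of its gene. Capitals mark matches on either strand to the octamer ATTTGCAT, the CCAAT box, TATAA, the site II core GGTCCG and the AC box core AAACACA.
Hist1h4b promoter (chr13:23756687-23756986, + strand): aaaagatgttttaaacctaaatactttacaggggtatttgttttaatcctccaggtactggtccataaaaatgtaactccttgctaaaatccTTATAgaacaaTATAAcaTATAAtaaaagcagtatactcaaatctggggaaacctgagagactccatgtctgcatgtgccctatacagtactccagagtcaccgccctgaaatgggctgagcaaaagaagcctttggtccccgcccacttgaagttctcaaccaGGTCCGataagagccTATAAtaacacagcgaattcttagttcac
Hist1h4d promoter (chr13:23581318-23581617, + strand): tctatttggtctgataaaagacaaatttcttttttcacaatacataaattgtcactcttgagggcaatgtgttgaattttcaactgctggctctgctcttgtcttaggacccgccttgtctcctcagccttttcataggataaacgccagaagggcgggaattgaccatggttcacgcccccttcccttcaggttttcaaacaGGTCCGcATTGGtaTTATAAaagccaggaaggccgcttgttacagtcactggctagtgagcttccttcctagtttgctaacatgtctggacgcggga
Hist1h2ah promoter (chr13:22035594-22035893, - strand): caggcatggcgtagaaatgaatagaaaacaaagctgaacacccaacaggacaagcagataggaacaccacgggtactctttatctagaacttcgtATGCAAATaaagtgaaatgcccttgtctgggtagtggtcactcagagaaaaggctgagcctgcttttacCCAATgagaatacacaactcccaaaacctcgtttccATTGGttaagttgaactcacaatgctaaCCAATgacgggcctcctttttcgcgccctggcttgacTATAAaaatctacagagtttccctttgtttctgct
Hist3h2a promoter (chr11:58954435-58954734, + strand): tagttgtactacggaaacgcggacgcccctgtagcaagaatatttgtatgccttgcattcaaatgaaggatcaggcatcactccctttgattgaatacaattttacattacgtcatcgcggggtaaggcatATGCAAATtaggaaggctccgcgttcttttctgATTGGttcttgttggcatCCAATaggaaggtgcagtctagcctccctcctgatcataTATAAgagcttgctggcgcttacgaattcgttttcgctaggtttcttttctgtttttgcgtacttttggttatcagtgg
Hist1h1d promoter (chr13:23554782-23555081, + strand): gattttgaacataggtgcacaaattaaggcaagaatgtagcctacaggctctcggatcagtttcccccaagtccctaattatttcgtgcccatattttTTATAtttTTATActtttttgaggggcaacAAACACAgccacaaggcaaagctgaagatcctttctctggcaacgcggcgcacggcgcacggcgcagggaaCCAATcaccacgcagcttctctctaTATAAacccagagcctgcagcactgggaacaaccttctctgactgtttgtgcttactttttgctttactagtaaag

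These letters were compared over the 62 histone promoters and all 27025 promoters of the same length in the table. Octamers stood in 13 of 62 (all 1.75%), and these were 7 of 18 H2A and 6 of 16 H2B promoters. Windows of head-to-head genes such as Hist1h2ah and Hist1h2bk overlap, so 1 octamer can count for both, and of the 2 entries of Hist1h2be the first was counted, while its other entry holds an octamer. The site II core stood in 11 of 12 H4 promoters and in 13 of all 62, against 8.39% of all promoters. AAACACA was in 5 of 6 H1 promoters and in 9 of 62, against 7.14%. CCAAT was in 53 of 62, against 37.9%, and every histone promoter without it was an H4 promoter, of which 3 of 12 held it. TATAA was in 49 of 62, against 25.5%. The NF-κB letters, GGGNN followed directly by TTTCC, were searched because the recipient line is named after inhibitors of that factor. They stood in 1 histone promoter, that of Hist1h3i, which had no chosen region, and in 1.62% of all promoters. Only this string was searched for that factor, so other forms of the site were not counted. None of the strings contains another, though their matches may lie side by side. These are descriptions of letters and not of bound sites. GC content was lower in histone promoters (median 45.3%) than over all promoters (52.7%).

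In the Hist1h4d promoter the site II core begins 47 bases before the annotated start, with TATAA 33 bases before it. In the Hist1h4b promoter the site II core begins 6 bases after the annotated start and TATAA 21 bases after it, in the same order. The accessible region there (chr13:23756914-23757058, 144 bp, the narrowest of the 35) covers both and the first bases of the gene, which runs from 23756937 to 23757386. The Hist1h2ah promoter holds its octamer 155 bases before the start, on the side of Hist1h2bk.

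For 34 of the 35, a start of a gene within 1 kb was known; 26 had their midpoint within 150 bp of the nearest such start, and the median distance was 80 bp. There were 7 regions on promoters shared by an H2A and an H2B gene, 23 on other promoters, 3 downstream of a start (at Hist1h1b, Hist1h1d and Hist1h4h) and 2 at genes whose start was not in the table. The median width was 362 bp, against 403 bp at other gene ends. Near-identical copies went with a missing region: of 8 promoters with a copy at 90% identity or more, 1 had a chosen region within 1 kb of its gene, against 41 of 54 others (75.9%). These were Hist1h2bq and Hist1h2br, Hist1h4m and Hist1h4n, Hist2h3c1 and Hist2h3c2, and Hist1h4j and Hist1h4k. How reads from such copies were placed is not given in the sources used here, so a lack of a region there cannot be told from reads that match more than 1 place.

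Depth was low: libraries held 121599 to 963699 counts, a region had a median of 17 counts per replicate (0 to 213), and the 35 together 238 to 1743. Of the marker genes examined as a check of the labels, 10 of 12 stem and progenitor genes had regions, summing to 775 to 1185 CPM (counts scaled to 1000000 per library), whereas the defining genes Cd79a, Cd3e, Elane, S100a8, Hba-a1 and Col1a1 had none. Other genes of those lists did: 3 of 6 erythroid genes, 1 of 5 B-cell genes, 1 of 6 T-cell genes (32.6 to 93.2 CPM), 1 of 7 granulocyte and monocyte genes (2.13 to 48.97 CPM) and 1 of 5 stromal genes (0 to 58.6 CPM). HSC markers were thinly covered, with 3 of 8 genes, and Procr, Fgd5 and Hoxb5 had no region.

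Accessibility per kb of region was close to that of other gene ends. The median of the 35 regions was 171 CPM per kb over all replicates, against 161 at other gene ends. Promoters shared by H2A and H2B genes had a median of 205 and other histone promoters 163. The shared promoter of Hist1h2bf and Hist1h2ad was highest at 267 CPM per kb, with 39.2 to 113 CPM and a median of 83.4 over the 23 replicates. Next came the region at Hist1h2ac and Hist1h2bc at 232, with 55.6 to 189 CPM, and that of Hist1h3g, an H3 gene, at 222, with 26.8 to 110 CPM. Replicate ranges of these 3 overlap, and Hist1h4b, also at 222, is a neighbour with no gap.

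At the low end stood Hist3h2a at 107.4 and Hist2h4 at 107.2 CPM per kb, and Hist1h4m at 70.9. Hist1h4m, an H4 gene with a near-identical copy in Hist1h4n, had 4.77 to 25.5 CPM, and it was the only 1 of the 35 that did not pass the filter on low counts. The 34 tested regions are therefore not the whole list. Chromosome 3 regions were all below the median of the 35: 145 CPM per kb at Hist2h2ac and Hist2h2be, 124 at Hist2h2bb and 107.2 at Hist2h4. Hist4h4, a lone H4 gene on chromosome 6, had 147 CPM per kb.

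**Figure D1:**
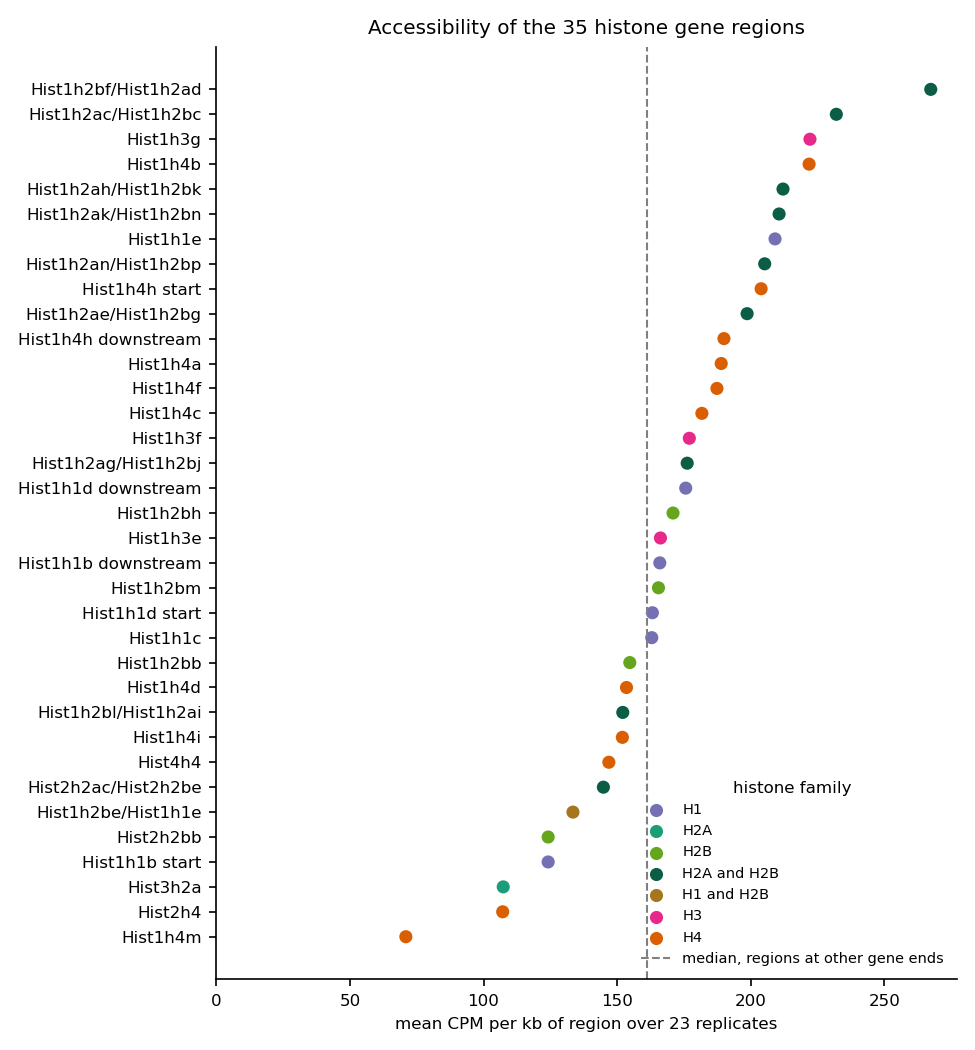
Mean accessibility of each of the 35 regions in CPM per kb of region (horizontal axis) over 23 replicates, coloured by the family of the histone genes it overlaps, or of the nearest where it overlaps none; the dashed line is the median of other gene ends, 161. Regions run from 70.9 at Hist1h4m to 267 at Hist1h2bf and Hist1h2ad, with shared H2A and H2B promoters mostly in the upper part.

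The group labelled HSC was compared with each progenitor subset, averaged over recipients. The main fit had no replicate block. It called no histone region between HSC and any progenitor subset at an adjusted p under 0.05 (edgeR quasi-likelihood test, Benjamini-Hochberg over 13325 regions). MPP2 gave 0 of 34 calls (0.0300% of all regions), MPP3 0 of 34 (2.57%), MPP4 0 of 34 (1.27%), and for the mean of the progenitors 0 of 34 (0.428%). The joint test over the 4 subsets called 0 of 34, where 7.18% of all regions were called. At an unadjusted p under 0.05 there were 2, 4, 0, 2 and 0 regions in these tests, or 5.88%, 11.8%, 0%, 5.88% and 0%, against 8.31%, 14.2%, 12.02%, 10.9% and 18.8% of all tested regions. A fit with a block of recipient type and replicate number did call Hist1h2bb in MPP3 and in the joint test (edgeR adjusted p = 0.0403 and 0.0423). ATAC-seq of sorted pools cannot tell fewer cells with an open region from a less open region in every cell.

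Median log2 fold changes lay near zero. They were 0.08 in MPP2, 0.01 in MPP3 cells and 0.01 in MPP4, with 19, 19 and 18 of 34 regions higher than in HSC; all tested regions had medians of -0.01, -0.02 and -0.02. The 35 regions summed to 2065 to 2544 CPM in HSC (median 2208, n = 6), 1959 to 2995 in MPP2 (2373, n = 6), 1668 to 2752 in MPP3 (2155, n = 5) and 2074 to 2654 in MPP4 (2120, n = 6). The 4 subsets overlap throughout. On the log2 scale the summed level differed from HSC by 0.07, -0.03 and -0.02, against a pooled SD between replicates of 0.18. With total counts as library sizes, 7, 11 and 9 regions were lower and the medians were 0.17 in MPP2, 0.14 in MPP3 and 0.06 in MPP4. The MPP2 median was 0.01 without WT HSC replicate 2 and 0.16 without IκB– MPP2 replicate 1. The median in MPP3 turned negative without several single replicates, for example -0.12 without WT MPP3 replicate 1, that in MPP4 was as low as -0.07 without WT MPP4 replicate 3, and that of the mean of the progenitors -0.02 without WT HSC replicate 2.

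Among regions at H4 genes, which encode the histone that pairs with H3, 3 of 10 tested were lower in the mean of the progenitors and 7 higher, with a median of 0.21. At H1 genes 4 of 6 were lower (median -0.11) and at H2B genes alone 3 of 4 (-0.23), where 58.2% of other gene ends were lower (-0.05). Differences between families were not tested. Hist1h4a had 27.5 to 80.4 CPM in HSC (median 48.1), 47.3 to 110 in MPP2 (76.8), 65.8 to 89.2 in MPP3 (81.1) and 27.8 to 102 in MPP4 (68.2). Its medians were higher in all 3 progenitor subsets, but the replicates overlap. Its log2 fold change was 0.61 ± 0.27 (SE) in MPP3 (edgeR adjusted p = 0.272), 0.42 ± 0.29 in MPP4 (0.621) and 0.52 ± 0.24 for the mean (0.404).

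Hist1h4f had 6.11 to 39.1 CPM in HSC (median 23.6) and 22.02 to 69.7 in MPP2 (40.7), a difference of 0.84 ± 0.35 (edgeR adjusted p = 0.508). Counts behind it were small, and the ranges overlap. For the mean of the progenitors the value was 0.61 ± 0.32 (0.495). Hist1h4i was at 6.88 to 39.9 CPM in HSC (median 30.99) and 37.5 to 64.5 in MPP3 (47.8), a difference of 0.75 ± 0.33 (edgeR adjusted p = 0.263).

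The H1 start at Hist1h1d, a linker histone, was 22.2 to 94.3 CPM in HSC (median 55.7) and 44.0 to 109 in MPP2 (70.2), with a log2 fold change of 0.56 ± 0.27 (edgeR adjusted p = 0.586). Hist1h3g, an H3 gene, went from a median of 58.8 CPM in HSC (26.8 to 70.7) to 76.2 in MPP4 (55.6 to 110), a difference of 0.49 ± 0.25 (edgeR adjusted p = 0.436). Neither passed the test, and the groups overlap in both.

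Hist1h2bm, a gene for H2B, the partner of H2A in the nucleosome, had the lowest value for the mean of the progenitors. It was at 48.8 to 110 CPM in HSC (median 85.9), 38.5 to 78.8 in MPP2 (57.7), 24.9 to 71.9 in MPP3 (53.9) and 32.6 to 98.8 in MPP4. The medians of all 3 progenitor subsets were below that of HSC, with overlapping replicates. The log2 differences were -0.43 ± 0.27 in MPP2 (edgeR adjusted p = 0.680), -0.66 ± 0.27 in MPP3 (0.215), -0.40 ± 0.28 in MPP4 (0.638) and -0.50 ± 0.23 for the mean (0.413).

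Hist1h2bb had 48.2 to 107 CPM in HSC (median 78.2) and 20.1 to 72.1 in MPP3 (46.9). The difference was -0.71 ± 0.27 (edgeR adjusted p = 0.162), and for the mean of the progenitors -0.38 ± 0.22 (0.557). It also had the smallest p of the joint test, 0.0574 before adjustment and 0.289 after it. These values are from the main fit. With a block of recipient type and replicate number, the edgeR adjusted p was 0.0403 in MPP3 and 0.0423 in the joint test. Hist1h4c in MPP2 was at -0.37 ± 0.28 (edgeR adjusted p = 0.744) and the downstream region of Hist1h4h in MPP4 at -0.49 ± 0.31 (0.586). The downstream region of Hist1h1d, named after its value was seen, was at -0.60 ± 0.36 in MPP3 (0.486).

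**Figure D2:**
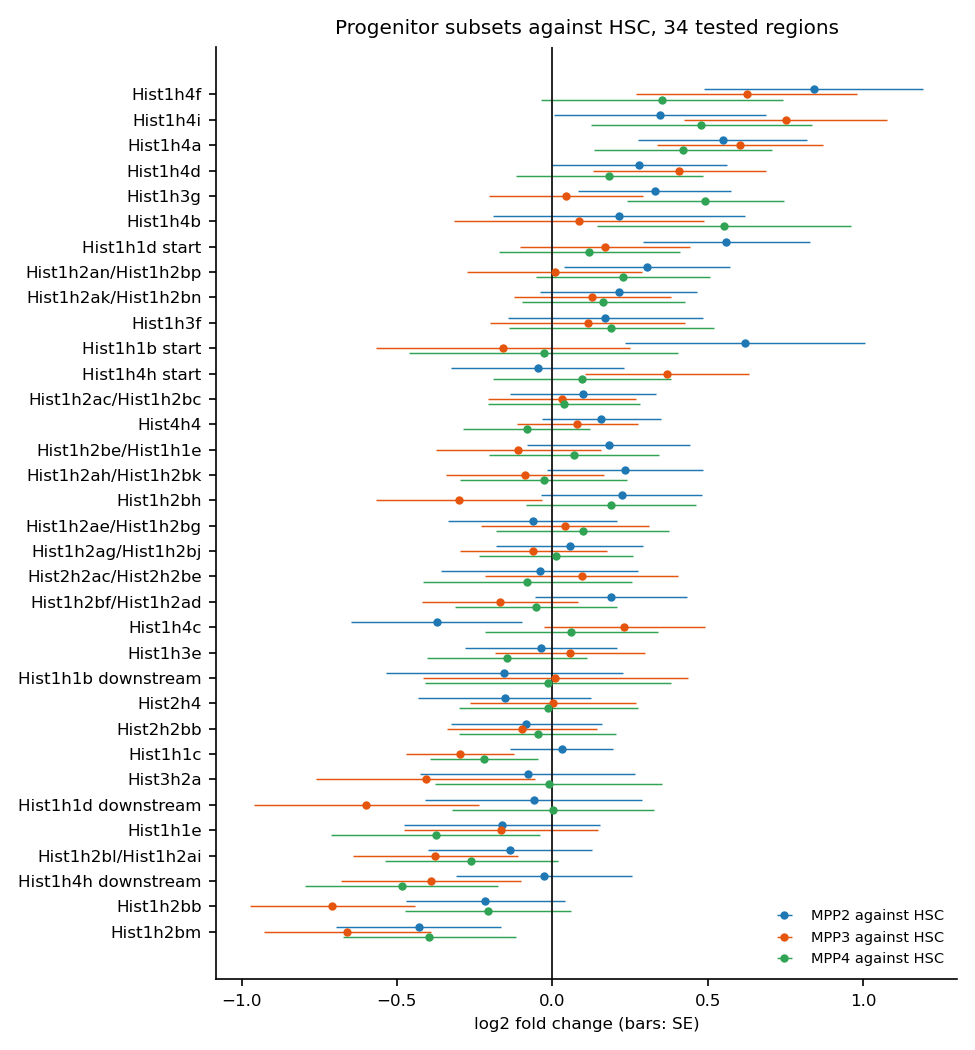
Log2 fold change of each of the 34 tested regions in MPP2, MPP3 and MPP4 against HSC (horizontal axis; bars are SE), ordered by the mean of the 3. Points lie on both sides of 0, from -0.71 at Hist1h2bb in MPP3 to 0.84 at Hist1h4f in MPP2. No region was called in this main fit, which has no replicate block.

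The recipients were compared to see whether the host alters chromatin of WT donor cells. Averaged over the 4 subsets, 29 of 34 histone regions had lower accessibility in cells from IκB– recipients, with a median log2 fold change of -0.32. At other gene ends 48.0% were lower, with a median of 0.01, and over all tested regions 50.2% were lower. By edgeR 1 region was called, that of Hist1h4b, which was lower (1.73% of all regions were called, and 1.13% were called lower). At an unadjusted p under 0.05 there were 11 of 34 regions, each lower, which is 32.4%, against 3.85% lower at other gene ends and 7.52% of all tested regions. The regions lie close together and share libraries, so they are not independent of each other.

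The median depended on single replicates in size. It was -0.21 without IκB– MPP3 replicate 1, the deepest library, in which the summed level was lowest, and between -0.35 and -0.27 when any other single replicate was left out. The count of lower regions ran from 25 to 30 when each of the 23 replicates was left out in turn. Under the other settings tried, 82.8% to 85.3% of the tested regions were lower.

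Summed accessibility had a lower mean in IκB– recipients in each subset, with a near-zero difference in MPP4. In HSC the 35 regions summed to 2544, 2252 and 2519 CPM in WT recipients and to 2065, 2126 and 2165 CPM in IκB– recipients, and the groups do not overlap. In MPP2 the sums were 2995, 2703 and 2369 CPM against 1959, 2084 and 2376, where the highest IκB– replicate reached the lowest WT replicate. In MPP3 they were 2752 and 2155 against 1668, 1961 and 2529, and in MPP4 2121, 2082 and 2654 against 2119, 2074 and 2499. Both of these pairs overlap.

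The log2 difference of the summed level was -0.20 in HSC, -0.33 in MPP2, -0.27 in MPP3 cells and -0.03 in MPP4, against the pooled SD of 0.18. The summed level is a description and was not tested. The share of counts at gene ends did not separate the recipients: it was 61.1% to 71.0% in WT recipients and 62.6% to 73.8% in IκB– recipients. Per 10000 gene-end counts, the 35 regions had 33.2 to 47.2 counts in WT recipients (median 37.8) and 25.6 to 38.3 in IκB– recipients (33.6). Regions at erythroid marker genes, of which 3 of 6 had any and the globin genes had none, summed to 76.5 to 242 CPM in WT recipients and 66.05 to 160 in IκB– recipients. Regions at HSC marker genes, 4 regions at 3 of 8 genes, summed to 175 to 239 CPM in WT and 139 to 177 in IκB– recipients in MPP2, and to 127 to 164 against 84.4 to 140 in MPP3; the recipients overlapped in all 4 subsets. The part of either list in the result was not tested.

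**Figure D3:**
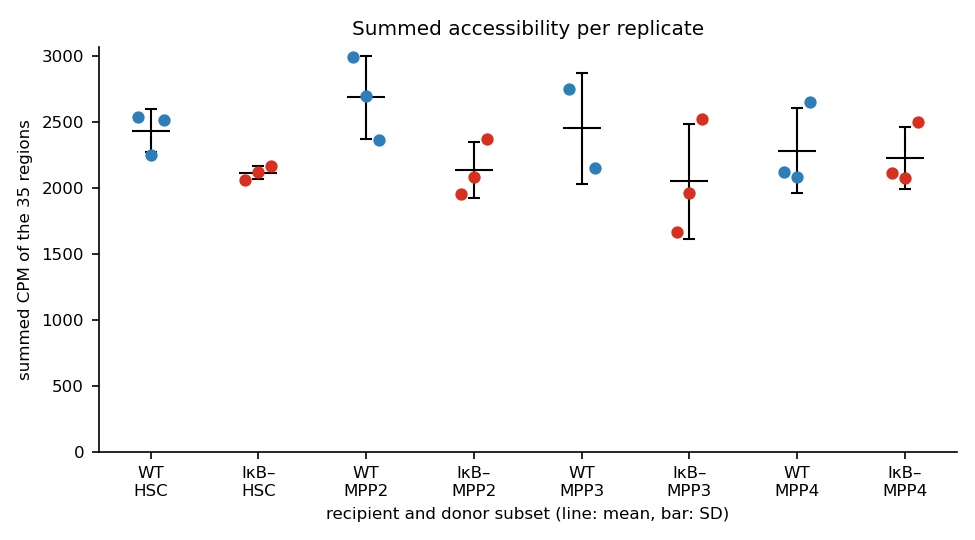
Summed CPM of the 35 regions (vertical axis) in each replicate by recipient and subset, WT in blue and IκB– in red; lines are means and bars SD (n = 3, n = 2 in WT MPP3). The 3 IκB– HSC replicates lie below the 3 WT HSC replicates, whereas the MPP4 groups overlap.

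Hist1h4b, which encodes H4, was the region with the largest difference between recipients among the 34. In WT recipients it had 48.9, 35.2 and 61.3 CPM in HSC, 27.7, 48.5 and 55.0 in MPP2, 45.5 and 36.7 in MPP3 cells, and 41.7, 48.7 and 62.1 in MPP4. In IκB– recipients it had 27.5, 0 and 8.87 CPM in HSC, 18.1, 14.7 and 24.03 in MPP2, 9.57, 18.7 and 27.0 in MPP3 cells, and 24.5, 22.8 and 27.7 in MPP4. Each IκB– replicate was below each WT replicate of its own subset in all 4 subsets. The region was picked for its difference, and the share of all tested regions separated in all 4 subsets was not counted. Across subsets, the highest IκB– replicate just reached the lowest WT replicate.

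The mean log2 fold change of Hist1h4b was -1.32 ± 0.26 (SE; edgeR adjusted p = 0.0035). By subset it was -1.91 ± 0.63 in HSC, -1.07 ± 0.47 in MPP2, -1.29 ± 0.46 in MPP3 cells and -1.004 ± 0.48 in MPP4, and none of these passed the test alone (edgeR adjusted p = 0.680, 0.999, 0.256 and 0.694). A difference between the subsets was not called either (joint test, edgeR adjusted p = 0.999). Counts were small, from 0 to 24 per replicate, and a count of 0 allows up to 3 (counting error only), with 150 in all WT replicates and 79 in all IκB– replicates. The call held in each of the 34 fits in which the region was tested, with values from -1.58 to -1.19 and adjusted p from 0.000372 to 0.013; a stricter count filter removed the region. Of the 10 tested H4 regions, Hist1h4b included, 8 were lower, with a median of -0.11.

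**Figure D4:**
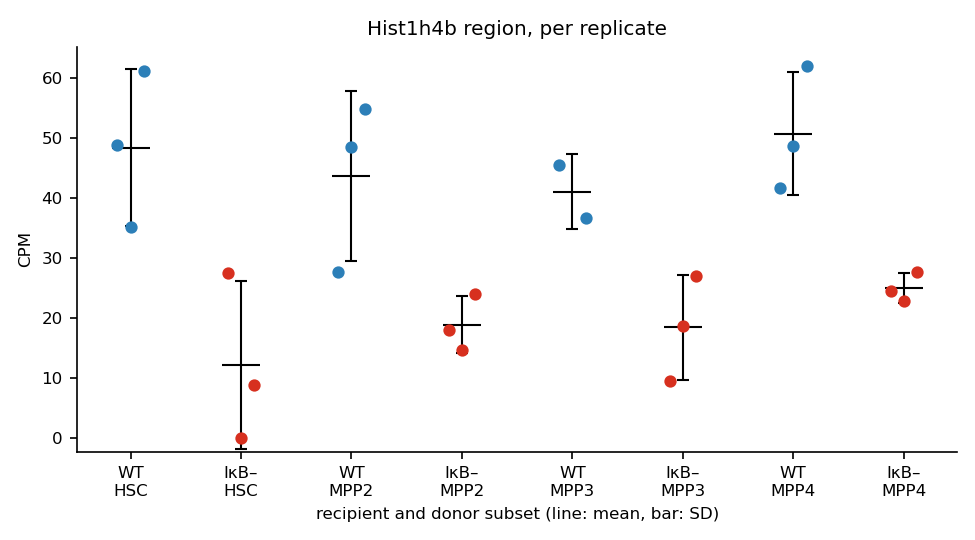
CPM of the Hist1h4b region (vertical axis) in each replicate by recipient and subset, WT in blue and IκB– in red; lines are means and bars SD (n = 3, n = 2 in WT MPP3). IκB– replicates run from 0 to 27.7 CPM and WT replicates from 27.7 to 62.1 CPM.

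Hist3h2a, the chromosome 11 H2A gene whose promoter is printed above, came next but was not called. Its levels in WT recipients were 61.1, 54.7 and 33.0 CPM in HSC, 55.4, 48.5 and 38.5 in MPP2, 37.9 and 41.3 in MPP3 cells, and 34.8, 34.8 and 66.8 in MPP4. In IκB– recipients they were 41.3, 8.93 and 35.5 in HSC, 25.0, 14.7 and 37.4 in MPP2, 8.61, 35.1 and 29.8 in MPP3 cells, and 35.4, 30.4 and 30.8 in MPP4. The recipients do not overlap in MPP2 and MPP3 and overlap in HSC and MPP4. The mean difference was -0.71 ± 0.24 (edgeR adjusted p = 0.117).

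The shared promoter of Hist1h2bl and Hist1h2ai had 85.6, 78.2 and 75.5 CPM in WT HSC and 48.2, 44.7 and 53.2 in IκB– HSC. In MPP3 it had 79.7 and 61.2 CPM in WT recipients and 20.1, 39.8 and 48.7 in IκB– recipients. Neither pair overlaps. The log2 difference was -1.07 ± 0.34 in MPP3 cells (edgeR adjusted p = 0.173) and 0.05 ± 0.38 in MPP4, with a mean of -0.53 ± 0.18 (0.133). At the shared promoter of Hist1h2ak and Hist1h2bn the MPP2 levels were 126, 103 and 143 CPM in WT recipients and 58.4, 58.7 and 93.4 in IκB– recipients, with no overlap and a difference of -0.79 ± 0.32 (edgeR adjusted p = 0.999). In the other subsets its recipients overlap, and in MPP4 the mean was 86.0 ± 26.6 CPM (SD, n = 3) in WT and 89.9 ± 10.3 (n = 3) in IκB– recipients.

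All 7 promoters shared by H2A and H2B genes were lower by the mean effect, with a median of -0.39 and a range from -0.53 to -0.09; sharing could be told only where both promoters were in the table. Regions were assigned to the family of the histone genes they overlap, or of the nearest where they overlap none. Of the 9 regions assigned to both H2A and H2B genes 8 were lower, and the exception was Hist1h2ac and Hist1h2bc at 0.11 ± 0.16 (edgeR adjusted p = 0.818), which overlaps both genes but is not among the 7 because the Hist1h2bc promoter had no entry. All 4 regions assigned to H2B genes alone were lower, with a median of -0.35; of these, Hist2h2bb, Hist1h2bh and Hist1h2bb also have an H3 gene within 1 kb. For H1, 5 of 6 were lower with a median of -0.19, and for H3, 2 of 3. The families were not tested against each other.

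By position, 6 of 6 tested regions near 21.7 Mb of chromosome 13, 3 of 3 near 22.0 Mb, 15 of 20 at 23.5 to 23.8 Mb and 3 of 3 on chromosome 3 were lower. The 7 other regions of the table between the first and the last histone region of chromosome 13 had a median of 0.12, with 2 of 7 lower and none called by edgeR. On chromosome 3 the values were -0.47 ± 0.22 at Hist2h2ac and Hist2h2be (edgeR adjusted p = 0.297), -0.36 ± 0.17 at Hist2h2bb (0.308) and -0.04 ± 0.19 at Hist2h4 (0.957). Regions above 0 were few: Hist1h1e, a linker histone gene, at 0.25 ± 0.22 (edgeR adjusted p = 0.661) and Hist1h3e, an H3 gene, at 0.14 ± 0.17 (0.773) led the 5 of them.

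**Figure D5:**
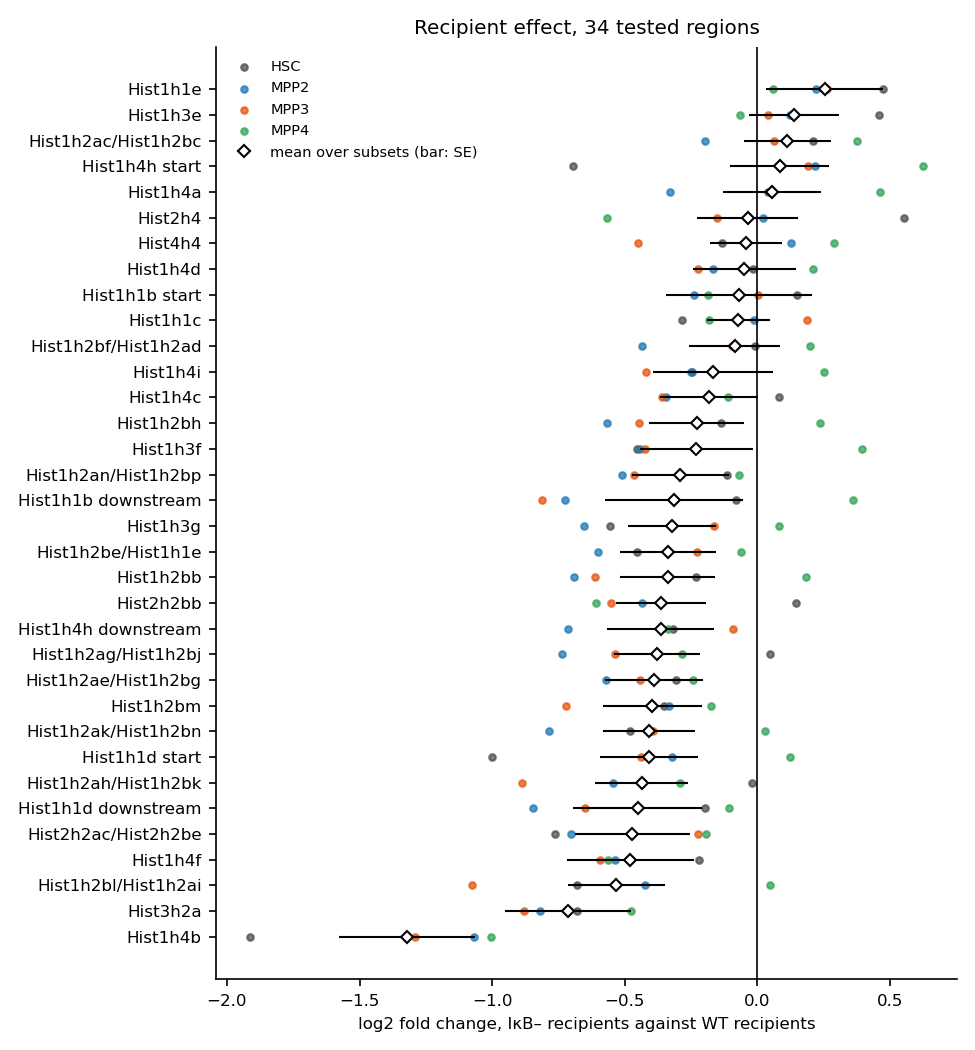
Log2 fold change of IκB– against WT recipients (horizontal axis) for each of the 34 tested regions; diamonds are the mean over the 4 subsets with SE and dots the single subsets. The diamonds of 29 regions lie below 0, Hist1h4b stands apart at -1.32, and MPP4 dots lie on both sides of 0.

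Within single subsets, limma-voom called 2 histone regions in MPP3, Hist1h4b and the promoter of Hist1h2bl and Hist1h2ai (adjusted p = 0.0352 for both). An edgeR fit with a replicate block called that promoter in MPP3 (-1.06, adjusted p = 0.0353). The main edgeR fit, without a block, called none in any single subset. The counts were 0 of 34 in HSC and in MPP2, where 0% of all regions were called, 0 of 34 in MPP3 (0.210%) and 0 of 34 in MPP4 (0.0450%); at an unadjusted p under 0.05 edgeR gave 2, 5, 4 and 1, or 5.88%, 14.7%, 11.8% and 2.94%, against 6.31%, 3.65%, 9.52% and 7.10% of all tested regions. Medians were -0.21 in HSC with 25 lower, -0.44 in MPP2 with 29 lower, -0.42 in MPP3 cells with 27 lower and -0.06 in MPP4 with 18 lower. The medians at other gene ends were 0.04, -0.02, 0.08 and -0.02. Without single replicates the HSC median was as small as -0.12 (without IκB– HSC replicate 3), the MPP3 median -0.23 (without IκB– MPP3 replicate 1 or WT MPP3 replicate 1), and the MPP4 median changed sign, to 0.07 without IκB– MPP4 replicate 1.

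Regions in which every IκB– replicate was below every WT replicate numbered 4 of 34 in HSC (4.40% of all regions), 10 in MPP2 (5.60%), 11 in MPP3 cells (15.7%, with 2 WT replicates) and 1 in MPP4 (5.85%). The reverse, every IκB– replicate above every WT replicate, was seen for 3 regions in MPP4, 1 in HSC and 0 in MPP2 and MPP3, where 800, 547, 824 and 1659 of all 13325 tested regions showed it (4.11% in HSC, 6.18% in MPP2 and 12.5% in MPP3). Of the 34 histone regions, Hist1h4b was the only 1 with every IκB– replicate below every WT replicate in all 4 subsets. Estimates below 0 in all 4 subsets were found for 11 of 34 regions (32.4%), against 8.44% at other gene ends and 10.7% of all tested regions. They included 5 regions assigned to both an H2A or H1 and an H2B gene, with Hist2h2ac and Hist2h2be, Hist1h2an and Hist1h2bp, Hist1h2ah and Hist1h2bk, Hist1h2ae and Hist1h2bg, and Hist1h2be and Hist1h1e. The joint test of whether the recipient effect differed between subsets called 0 of 34 by edgeR (0% of all regions), and 0 at an unadjusted p under 0.05; the smallest p was 0.149 at the Hist1h4h start (adjusted p = 0.999). The near-zero median in MPP4 is thus not shown to differ from the other subsets.

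Genes that act with the histone genes had medians near 0 between recipients. Of 25 regions at 23 of 24 listed regulators of histone genes and histone mRNA, among them Npat, Slbp (which binds the stem-loop) and Hinfp, 0 were called either way, 11 were lower and the median was 0.03. For histone chaperones it was 0 called, 7 of 15 lower and 0.05, and for replication-independent histone genes, which make histones outside S phase, 0 called and 4 of 6 lower, with a median of -0.02. The S-phase list, with replication genes such as the Mcm helicase subunits and Pcna, had 0 called, 11 of 27 lower and a median of 0.00. Against HSC, edgeR likewise called 0 regions of the 4 lists in each progenitor subset. The regulators had a median of -0.28 in MPP2, with 19 of 25 lower and 5 at an unadjusted p under 0.05. There 57.2% of other gene ends were lower and 7.22% were at such a p. In MPP3 their median was -0.07, with 13 of 25 lower and 5 at such a p (other gene ends 54.4% and 7.67%). In MPP4 it was -0.17, with 16 of 25 lower and 4 at such a p (58.2% and 6.57%). At an unadjusted p under 0.05 the recipient counts by edgeR were 2 of 25, 3 of 15, 0 of 6 and 1 of 27, against 14.3% of all tested regions and 9.27% of other gene ends. The differences between these lists and the histone regions were not tested.

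Levels of the histone regions varied together to a small extent. Over the 23 replicates the median Pearson correlation of log2 CPM between 2 histone regions was 0.162 (561 pairs), against 0.017 between other gene ends. The replicates share library depth and recipient, and these are descriptions. The regions outside the list most like the summed level were at Fntb (r = 0.695), Ngdn (0.656), an unannotated stretch of chromosome 11 from 26805031 to 26805316 (0.614), Pck2 (0.606) and 1700037C18Rik in Cluap1 (0.606), each over 23 replicates.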

How the data were processed

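The authors deposited raw counts per region for 24 libraries on mm10 coordinates; the counts are whole numbers and were not normalized. Bowtie2, SAMtools, Picard, MACS2 2.1.0 and deepTools are named per the submitters' processing notes, without roles; duplicate removal, Tn5 offset and counting are not given in the sources used here. Members, lists and tests were chosen with earlier results of these data known. Counts were filtered by filterByExpr, which kept 13325 regions, scaled by TMM and fitted as 8 group means with edgeR 4.0.16 in R 4.3.3 (robust quasi-likelihood, 15 residual degrees of freedom). Adjusted p-values are Benjamini-Hochberg over all tested regions, threshold 0.05. DESeq2 1.42.0 and limma 3.58.1 served as alternatives. The fit was tested on simulated data. Replicates 2 and 3 of WT MPP3 gave a chi-square per degree of freedom of 1.005 (p = 0.348) and were summed. Regions described with full values were those called in any contrast, the smallest p in each direction, the 3 highest and 3 lowest levels, and those outside chromosome 13. The identity limit of 90% for promoter copies was set after values were seen. Coordinates are as the table gives them. PCR copies are not independent molecules.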

Additional observations from a re-analysis of the deposited data

Results flagged for a closer look

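Hist4h4, the lone H4 gene on chromosome 6, drew attention because its recipient effect pointed in opposite directions in 2 subsets. In MPP3 it had 165 and 126 CPM in WT recipients and 118, 72.6 and 124 in IκB– recipients, so that all IκB– replicates were lower (log2 fold change -0.45). In MPP4 it had 97.3, 97.3 and 105 CPM in WT recipients and 114, 129 and 126 in IκB– recipients, so that all were higher (0.29). The difference between these effects, 0.74, was not tested by itself; the joint test over the 4 subsets gave an edgeR adjusted p = 0.999. Such opposite separations were found in 436 of 13325 tested regions (3.27%).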

How the results depend on the processing

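Counts of called histone regions stayed within 1.5 times under most alternatives: 662 recomputed summaries did so and 5 did not. Of the values of the regions described by the naming rule, each in its own comparison, 906 kept their call and 4 gained one. None reversed. In the main fit only the mean recipient effect called a histone region, Hist1h4b. In all other comparisons, keeping the call means staying uncalled, so these totals say little about robustness. The mean recipient effect called 0 regions under the stricter filter, which removes Hist1h4b, and the recipient effect in MPP3 called 2 with limma-voom: Hist1h2bl and Hist1h2ai (-1.22, adjusted p = 0.0352) and Hist1h4b (-1.52, adjusted p = 0.0352). Leaving out each replicate in turn kept 1 call for the mean recipient effect (1 to 1) and 0 for the others (0 to 0). Over all tested regions the mean recipient effect called 231 in the main analysis, 147 with DESeq2, 61 with the stricter filter and 385 when the share of counts at gene ends was a covariate. The recipient effect in MPP3 called 28, against 183 with limma-voom and 80 with 24 libraries apart. MPP3 against HSC called 343, against 78 and 157 with the stricter filter and with only the groups compared.

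Replicate numbers were not taken to pair samples, since not every same-numbered pair correlated over 0.1. Deviations of same-numbered samples of 1 recipient type correlated at 0.0249 to 0.326 (mean 0.161, 27 of 36 pairs over 0.1). Those across recipient types correlated at -0.0438 to 0.384 (mean 0.109, 25 of 48). Differently numbered samples had means of -0.08 within a recipient type (1 of 72 over 0.1) and -0.0546 across types (1 of 96). Same-numbered samples thus deviated together more than others did, and the main fit has no term for this. Both blocked fits kept the 24 libraries apart, with n = 3 in WT MPP3, and tested 13006 regions. With the replicate block, the recipient effect in MPP3 called 1 histone region (Hist1h2bl and Hist1h2ai, -1.06, adjusted p = 0.0353) and 357 of all regions, and the mean recipient effect 481; without a block the same 24 libraries gave 80 and 287, and an adjusted p = 0.131 for Hist1h2bl and Hist1h2ai. With a block of recipient type and number, MPP3 against HSC called 1 (Hist1h2bb, -0.71, adjusted p = 0.0403) and the joint subset test 1 (Hist1h2bb, adjusted p = 0.0423); over all regions these called 919 and 2159, against 403 and 1078 for the same 24 libraries without a block, where Hist1h2bb had an adjusted p = 0.12 (MPP3) and 0.200 (joint). The cause was not tested for any of these. Depth limits the results: a region had a median of 17 counts per replicate.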
